A study of Mus musculus with 2 samples.

Results

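The genes described here encode the enzymes that remove superoxide and peroxides and that make, recycle and use glutathione, together with the transcription factor NRF2 (Nfe2l2) and its inhibitor Keap1. They were picked by a rule on names, not on values, though with earlier results of these data known. The rule took superoxide dismutases, peroxiredoxins, glutathione peroxidases, thioredoxins and their reductases, and glutathione transferases. It also took the enzymes of glutathione synthesis and reduction, and 3 further genes of the NRF2 programme (Nqo1, Hmox1 and Srxn1). Of 19938 genes with an array probe set of 1 gene symbol, 51 met this rule. They fell into 8 families, and 4 of them (Sod2, Prdx3, Txn2 and Txnrd2) encode enzymes of the mitochondrial matrix and were set apart.

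The RNA came from inguinal white adipose tissue, the fat pad under the skin of the groin, of male C57BL/6J littermates. The group labelled ApoE-KO lacked apolipoprotein E (ApoE-/-), and the group labelled DKO lacked apolipoprotein E and uncoupling protein 1 (Ucp1-/-;ApoE-/-). Both groups thus shared the ApoE deletion, the housing at 23 °C and a high-fat diet for 9 weeks from 9 weeks of age. RNA of 3 mice per genotype was mixed and put on 1 Affymetrix whole-transcript array, so there were 2 arrays, no measure of the spread between mice and no test. Every difference below is the log2 intensity of the array labelled DKO minus that of the array labelled ApoE-KO and has no replicate check. Where a pair of intensities follows a gene, the array labelled DKO comes first.

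Superoxide leaks from the respiratory chain and is turned into hydrogen peroxide by superoxide dismutases. Peroxiredoxins, fed with electrons by thioredoxin and its reductase, and glutathione peroxidases, fed by glutathione, then reduce peroxides, and NADPH pays for both routes. Cytosol and mitochondrial matrix hold separate sets of these enzymes. Brown and beige fat is rich in mitochondria. NRF2, which is degraded through KEAP1 until oxidants or electrophiles block that step, drives many of the cytosolic genes, and its activity is set largely at the protein level.

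The median intensity over all probe sets was 152.1 on the array labelled DKO against 157.65 on that labelled ApoE-KO. The adipocyte markers Adipoq (6164 and 6714) and Plin1 (5019 and 5070) were bright on both arrays. Ucp1, the gene said to be deleted in DKO mice, read 2230 on the array labelled DKO against 219 on that labelled ApoE-KO, which goes against the label unless the probes lie outside the deleted part. Apoe, said to be deleted in both groups, read 502 and 589, above the floor described next on both arrays. The position of either gene's probes is not stated here, so arrays are named by their labels, on which all directions rest. Skeletal muscle markers were lower in the array labelled DKO for 20 of 20 genes (summed intensity 3194 against 41087), and 14 of them lay there below the floor. Brown and beige markers, Ucp1 included, were higher for 11 of 11 (29337 against 4876), while macrophage markers (9063 against 13071), B cell markers (3314 against 6656) and fibroblast markers (19263 against 29203) summed lower. Mature adipocyte markers (57227 against 55349) and endothelial markers (9556 against 9175) summed to similar intensities, and 9 of 10 epithelial markers lay below the floor on each array. All antioxidant values were measured beside these shifts, and their part in the values was not tested. Fewer cells of a type and less RNA per cell cannot be told apart in such tissue RNA.

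Most antioxidant genes were higher on the array labelled DKO, and Sod2 and Prdx3 of mitochondria had the largest differences. Over all 51 the median difference was 0.26, against -0.01 over all 19938 genes, and the range was from -0.27 (Mgst3) to 1.22 (Sod2). Of the 51, 38 were higher and 13 lower, where 9249 of all 19938 genes were higher and 10397 lower. A gene was counted when its mean intensity reached the floor of 196.9, the median of all named probe sets, which 42 of the 51 did. Of these 42, 6 were at least 2-fold higher (Sod2, Prdx3, Gpx8, Prdx2, Gsta4 and Gsto1), or 14.3%, where 2.79% of the 9891 genes on or above the floor were. None of the 42 was at least 2-fold lower, where 0.698% of all genes were. At 1.5-fold, 16 of the 42 (38.1%) were higher and 0 lower, against backgrounds of 7.57% and 3.73%. At 3-fold there were 0 in either direction, with 0.526% and 0.384% of all genes past that size. The remaining 26 of the 42 lay within 1.5-fold. Just inside the 2-fold size was Gsto1 (1.03), and just outside it was Txnrd2 (0.96).

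**Figure D1:**
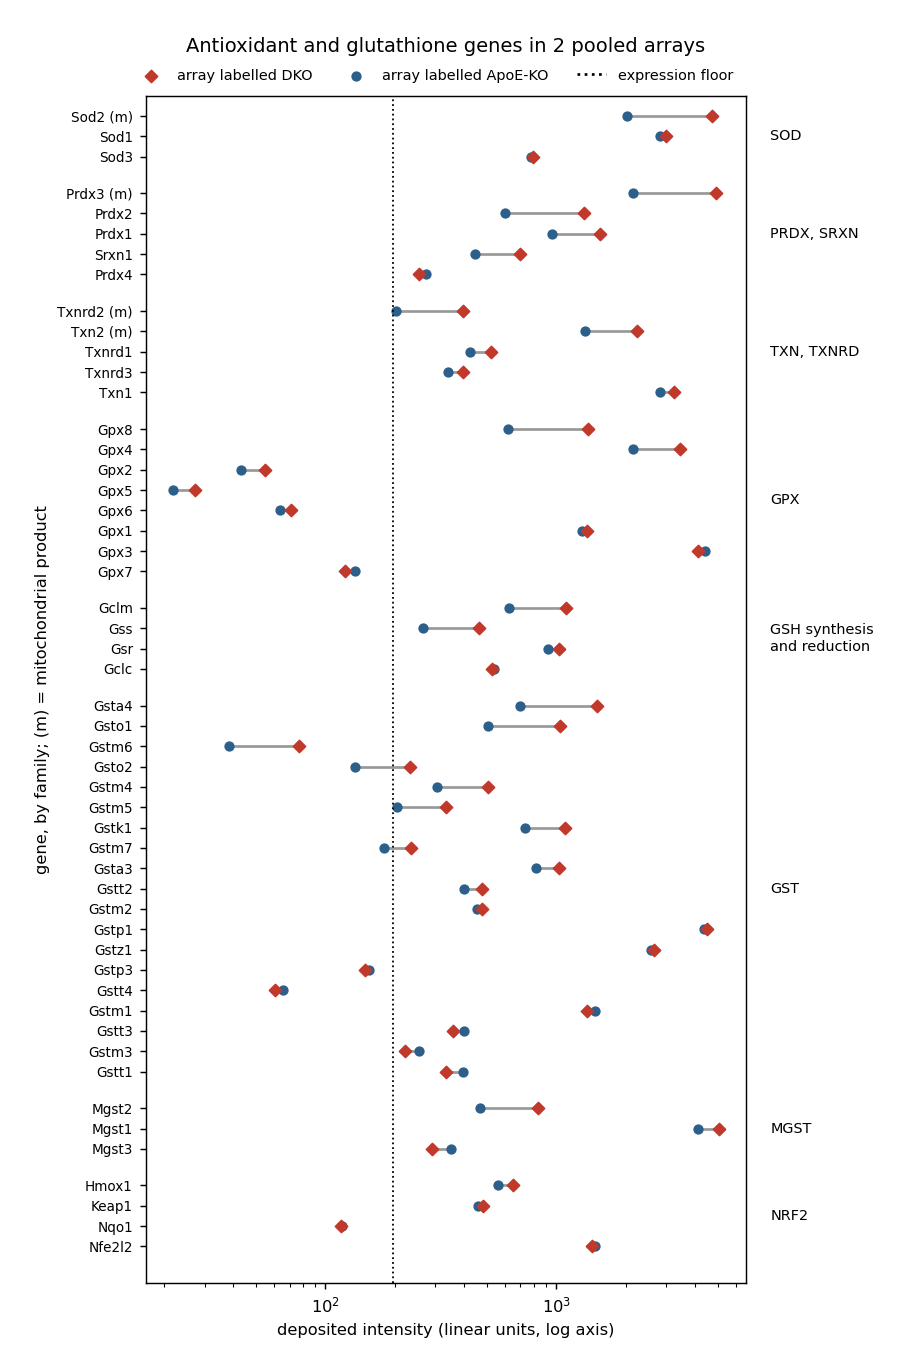
Deposited intensity (log axis) of the 51 genes, by family, with a red diamond for the array labelled DKO, a blue circle for the array labelled ApoE-KO and a dotted line at the floor of 196.9. The widest gaps among genes to the right of the floor are those of Sod2, Prdx3, Gpx8, Prdx2, Gsta4 and Gsto1, with the red diamond on the right in each.

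The 3 superoxide dismutases split by compartment. Sod2, the manganese enzyme of the mitochondrial matrix, read 4731 on the array labelled DKO against 2029 on that labelled ApoE-KO, which differ by 1.22 (2.33-fold). Sod1, the copper-zinc enzyme of the cytosol, read 3004 and 2817 (0.09), and Sod3, its secreted relative, read 791 and 777 (0.03). Both of these lay within 1.5-fold, so the difference of Sod2 exceeded that of Sod1 by 1.13 and that of Sod3 by 1.19. Ccs, the copper chaperone that loads SOD1, is among the related genes below.

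Peroxiredoxins reduce hydrogen peroxide with a reactive cysteine. Prdx3, the form of the mitochondrial matrix, read 4910 on the array labelled DKO against 2154 on that labelled ApoE-KO (1.19, or 2.28-fold). The cytosolic Prdx2 read 1325 and 601 (1.14), close to Prdx3. This value came from the brighter of 2 probe sets. The dimmer one read 199 and 128, a difference of 0.64, and its mean lay below the floor. The mean difference of both was 0.89, so Prdx2 passed 2-fold on 1 of its 2 probe sets. Prdx1, also cytosolic, read 1547 and 960 (0.69) on its brighter probe set, and its other probe set gave 0.54. Which other sequences the probe sets of Prdx2 and Prdx1 could match was not checked here. Prdx4, the form of the endoplasmic reticulum, stood apart with 255 and 272 (-0.09). Srxn1, or sulfiredoxin, restores peroxiredoxins whose cysteine has been overoxidised, and it read 697 and 446 (0.64). Of these 5 genes, 4 were at least 1.5-fold higher, where 7.57% of all genes on or above the floor were. The median of the 5 was 0.69, the highest of the 8 families.

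Thioredoxin and thioredoxin reductase exist as a cytosolic and a mitochondrial pair. The mitochondrial reductase gene Txnrd2 read 393 on the array labelled DKO against 203 on that labelled ApoE-KO (0.96), the lower value lying close to the floor. The mitochondrial thioredoxin gene Txn2 read 2250 and 1330 (0.76). Their cytosolic counterparts differed by less: Txnrd1 read 522 and 422 (0.31) and Txn1 read 3248 and 2812 (0.21). Txnrd3, a reductase best known from testis, read 396 and 339 (0.22). The gap between the mitochondrial gene and its cytosolic counterpart was 0.65 for the reductases and 0.55 for the thioredoxins.

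Seen together, all 4 genes with a mitochondrial product were at least 1.5-fold higher and 2 at least 2-fold. Of all genes on or above the floor, 7.57% and 2.79% were higher by these sizes. The median of the 4 mitochondrial genes was 1.07. The other 47 genes had a median of 0.22. Each mitochondrial gene had a larger difference than every counterpart of its class that was among the genes used here. The smallest gap was between Prdx3 and Prdx2 (0.05) and the largest between Prdx3 and Prdx4 (1.28). The peroxiredoxin genes Prdx5 and Prdx6 were not among the genes used, so Prdx3 was not compared with them. A further 5 genes (Gpx1, Gpx4, Gsr, Gstk1 and Mgst1) were listed here as having a mitochondrial form beside another location. This list need not be complete, and the medians below depend on it. All 5 listed genes were higher, with a median of 0.30 and Gpx4 (0.69) at the top. Counting them as mitochondrial brought the median of the resulting 9 genes to 0.69. For scale, 24 mitochondrial enzymes of the tricarboxylic acid cycle, respiratory chain and protein handling had a median of 1.19, and 18 reached 2-fold, from Tomm20 (0.38) to Suclg1 (1.99). All 4 mitochondrial antioxidant genes lay inside that range. The difference between the mitochondrial genes and the rest could not be tested with 1 array per genotype.

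**Figure D2:**
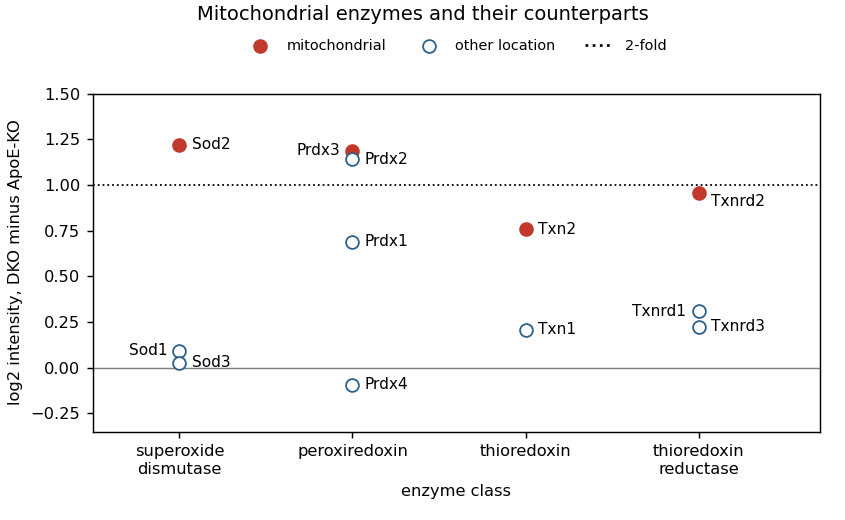
Log2 difference between the arrays (vertical axis) for mitochondrial enzymes (filled) and their counterparts in other locations (open), by enzyme class, with the 2-fold size as a dotted line. Sod2, Txn2 and Txnrd2 stand at least 0.55 above their counterparts, whereas Prdx3 (1.19) and Prdx2 (1.14) lie side by side.

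The stretches of DNA just before the starts of Sod2 and Prdx3, the genes with the largest differences, are shown here. Both lack the motif of NRF2 that is treated next, as do 36 of the 45 antioxidant genes with a RefSeq promoter. They are the 250 bases before the RefSeq start in the build GRCm38.p6, on the strand of the gene, with each match to the GC box GGGCGG on either strand in capitals. The stretch of Sod2 is chr17:13007589-13007838 (plus strand) and that of Prdx3 is chr19:60874539-60874788 (minus strand).
Sod2: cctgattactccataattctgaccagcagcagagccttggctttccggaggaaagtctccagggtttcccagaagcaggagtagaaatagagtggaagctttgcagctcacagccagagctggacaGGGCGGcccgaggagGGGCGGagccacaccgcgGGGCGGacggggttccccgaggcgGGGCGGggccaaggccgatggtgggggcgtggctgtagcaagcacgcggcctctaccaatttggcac
Prdx3: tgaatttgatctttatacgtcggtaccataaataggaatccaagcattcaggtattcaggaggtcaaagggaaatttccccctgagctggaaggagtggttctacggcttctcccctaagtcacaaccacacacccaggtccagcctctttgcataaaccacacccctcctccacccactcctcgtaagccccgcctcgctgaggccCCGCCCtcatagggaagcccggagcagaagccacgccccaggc
The stretch of Sod2 held 4 GC boxes and 63.6% G or C, and that of Prdx3 held 1 GC box and 55.6%. GC boxes were found in 28 of the 45 antioxidant genes with a RefSeq promoter (62.2%) and in 35.4% of 27025 genes. The median share of G and C was 56.8% in the antioxidant promoters and 52.4% in all. The 27025 genes are all those with a RefSeq promoter, whether or not they were on the array or reached the floor. An extended half-site of oestrogen-related receptors (TCAAGGTCA), receptors that drive mitochondrial genes in brown fat, was found in 0 of the 45 and in 0.422% of all genes.

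Among glutathione peroxidases, Gpx8 and Gpx4 were at least 1.5-fold higher, and Gpx1 and Gpx3 were not. Gpx8, a membrane peroxidase of the endoplasmic reticulum, read 1380 on the array labelled DKO against 618 on that labelled ApoE-KO (1.16, or 2.23-fold). Gpx4, which reduces lipid hydroperoxides in membranes and thereby blocks ferroptosis, read 3454 and 2145 (0.69), and its second probe set gave 0.66. The abundant cytosolic form Gpx1 read 1359 and 1299 (0.07). Gpx3, the secreted form found in plasma, read 4116 and 4397 (-0.10). Thus 1 of the 4 genes on or above the floor was 2-fold higher, 1 more was 1.5-fold higher, and the other 2 were nearly level. Of all genes on or above the floor, 2.79% were at least 2-fold higher and 7.57% at least 1.5-fold. Gpx2, Gpx5, Gpx6 and Gpx7 lay below the floor in both arrays, with intensities from 21.9 to 134. Gpx7 is the closest relative of Gpx8 in the endoplasmic reticulum, and its difference was -0.14. Among the peroxidases of that compartment named here, Gpx8 was thus 2-fold higher and Prdx4 and Gpx7 were not.

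The family also holds selenoproteins, whose active site carries selenocysteine in place of cysteine. The 7 selenoprotein genes here, Gpx1 to Gpx4 and Txnrd1 to Txnrd3, had a median of 0.31, from -0.10 (Gpx3) to 0.96 (Txnrd2). Among 9 genes of selenoprotein synthesis, 8 were higher, with a median of 0.14. None of the 8 on or above the floor was 2-fold different, where 2.79% of all such genes were higher by that size and 0.698% lower. Among those 8, Sephs2, which makes the selenium donor, had the largest difference with 1617 and 862 (0.91), followed by Sepsecs (0.49) and Trnau1ap (0.19).

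Glutathione is made in 2 steps and recycled by a reductase. Gclm, the modifier subunit of glutamate-cysteine ligase, the first and rate-limiting enzyme, read 1101 on the array labelled DKO against 623 on that labelled ApoE-KO (0.82). Gclc, the catalytic subunit of the same enzyme, read 529 and 539 (-0.03). The subunits of this enzyme therefore differed from each other. Gss, which adds glycine in the last step, read 464 and 266 (0.80). Gsr, the reductase that returns oxidised glutathione to its reduced form with NADPH, read 1026 and 922 (0.15). Of the 4 genes, Gclm and Gss were at least 1.5-fold higher, and the others lay within that size. The share at least 1.5-fold higher among all genes on or above the floor was 7.57%.

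The glutathione transferases, which couple glutathione to electrophiles such as products of lipid peroxidation, formed the largest family. Of 19 cytosolic or organellar transferase genes, 13 were higher and 6 lower, with a median of 0.26. Gsta4, an alpha-class transferase with high activity towards 4-hydroxynonenal, an aldehyde from oxidised lipids, read 1508 on the array labelled DKO against 696 on that labelled ApoE-KO (1.12, or 2.17-fold). Gsto1, an omega-class enzyme that also reduces dehydroascorbate, read 1034 and 505 (1.03). Its neighbour Gsto2 read 233 and 135 (0.79), or 0.24 when the lower intensity is raised to the floor. Gsta3, the other alpha-class gene measured on its own, read 1029 and 815 (0.34), and Gstk1, the form of mitochondria and peroxisomes, read 1095 and 736 (0.57). Gsta4 and Gsto1 were the transferase genes on or above the floor that passed 2-fold, where 2.79% of all such genes were that much higher.

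The mu-class genes lie side by side on chromosome 3, and they did not shift alike. In chromosome order the differences were 0.70 for Gstm5, 0.39 for Gstm7, 1.003 for Gstm6, -0.21 for Gstm3, 0.07 for Gstm2, -0.12 for Gstm1 and 0.74 for Gstm4. Gstm4 read 507 on the array labelled DKO against 304 on that labelled ApoE-KO, and Gstm5 read 333 and 205. Gstm1 was brighter and nearly level at 1356 and 1472, as was Gstm2 at 475 and 453. Gstm3 read 221 and 256, and its second probe set lay at -0.25. Gstm6 was below the floor on both arrays (76.8 and 38.3), and Gstm7 (234 and 179) straddled it, so their differences are less certain than those of the brighter genes. Mu-class genes are close in sequence, and probes shared between them were not checked here.

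The remaining soluble transferases lay within 1.5-fold. The pi-class Gstp1 read 4483 on the array labelled DKO against 4370 on that labelled ApoE-KO (0.04), and Gstz1, an enzyme of tyrosine breakdown, read 2644 and 2583 (0.03). On chromosome 10 the theta-class genes Gstt3 (358 and 397), Gstt1 (334 and 395) and Gstt2 (479 and 399) differed by -0.15, -0.24 and 0.26. Gstt4 and Gstp3 lay below the floor on both arrays. Among the membrane-bound enzymes, Mgst2, which can also make leukotriene C4, read 831 and 468 (0.83). Mgst1 of the endoplasmic reticulum and outer mitochondrial membrane read 5069 and 4116 (0.30), and Mgst3 read 290 and 350 (-0.27), the lowest difference of all 51 genes. The membrane-bound enzymes thus spanned both the 1.5-fold size and the lowest value.

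**Figure D3:**
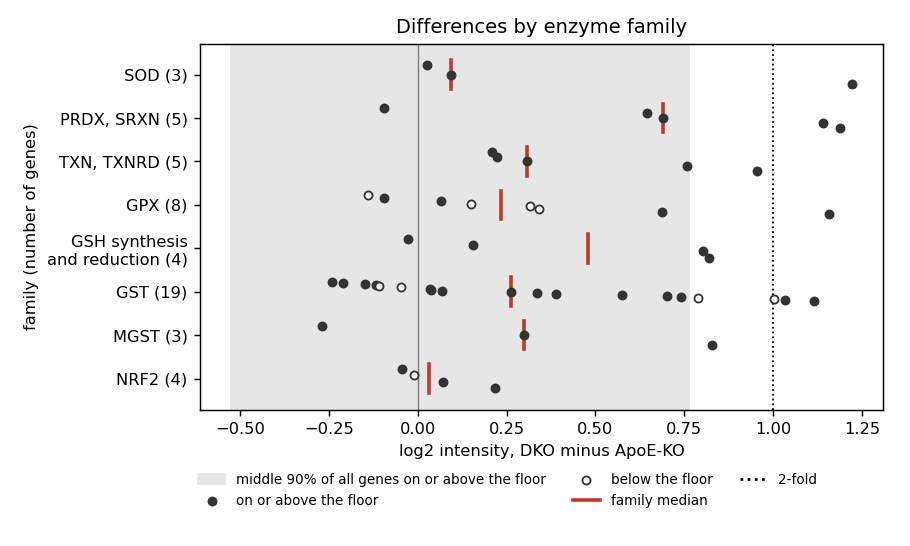
Log2 difference between the arrays (horizontal axis) for each gene (points, open below the floor) in its family, with the family median as a red bar, the 2-fold size as a dotted line and, in grey, the middle 90% of all genes on or above the floor (-0.52 to 0.76). The highest family median is that of the peroxiredoxins and sulfiredoxin (0.69), and the 4 NRF2 genes lie between -0.04 and 0.22.

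NRF2, its inhibitor and the target Hmox1 lay within 1.5-fold. Nfe2l2, which encodes NRF2, read 1431 on the array labelled DKO against 1475 on that labelled ApoE-KO (-0.04), and its inhibitor Keap1 read 482 and 458 (0.07). Hmox1, the haem oxygenase induced by haem and oxidants, read 652 and 561 (0.22). Nqo1, a quinone reductase often used as the readout of NRF2, lay below the floor at 117 and 118. Of other known targets named here, Gclm (0.82), Prdx1 (0.69) and Srxn1 (0.64) were at least 1.5-fold higher. Txnrd1 (0.31), Gsta3 (0.34), Txn1 (0.21), Gsr (0.15), Gstp1 (0.04), Gstm1 (-0.12) and Gclc (-0.03) were not. This naming of targets among the 51 genes is not complete, so its split at 1.5-fold is not a share of all targets. Transcript levels of Nfe2l2 and Keap1 say little about NRF2 protein, which was not measured.

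The core of the antioxidant response element bound by NRF2 is TGACNNNGC, searched here on both strands. It was found in the 250 bases before the start of 9 of the 45 genes with a RefSeq promoter (20%). Among the same 27025 genes, not limited to those on the array or reaching the floor, the share was 11.5%. The 5 stretches below set 3 genes that were at least 1.5-fold higher (Gclm, Prdx1 and Gstm5) beside 2 that lay within 1.5-fold (Sod1 and Nfe2l2), with the match in capitals, on the strand of the gene, in GRCm38.p6.
Gclm, chr3:122245403-122245451, plus strand: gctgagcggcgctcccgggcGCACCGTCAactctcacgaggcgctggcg
Prdx1, chr4:116685446-116685494, plus strand: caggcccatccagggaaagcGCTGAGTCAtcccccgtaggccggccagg
Gstm5, chr3:107895792-107895840, plus strand: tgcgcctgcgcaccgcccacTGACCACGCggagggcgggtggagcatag
Sod1, chr16:90220686-90220734, plus strand: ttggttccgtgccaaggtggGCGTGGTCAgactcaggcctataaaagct
Nfe2l2, chr2:75704875-75704913, minus strand: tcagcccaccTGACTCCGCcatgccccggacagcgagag
In Gclm, Prdx1 and Sod1 the match is read on the opposite strand, so the core appears in reverse complement. The other 4 genes with a match were Gsta3, Gstm7, Mgst1 and Txnrd1, with differences from 0.30 to 0.39. The 9 genes had a median difference of 0.34 and the 36 without a match one of 0.22. The largest difference among the 9 was that of Gclm (0.82). Enhancers farther away were outside these windows, and a match is a description of letters, not of binding.

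Genes around these enzymes were read from lists of known pathway members. Of all 19938 genes, 9249 were higher and 10397 lower. Of the 9891 on or above the floor, 2.79% were at least 2-fold higher and 0.698% at least 2-fold lower. At these shares, lists as small as those below would hold few such genes or none. Their counts past 2-fold are therefore not read as results about the lists. NADPH is the electron source for both glutathione and thioredoxin reductases. Of 16 measured genes listed for its supply, not all of which form it themselves, 11 were higher, with a median of 0.46. The transketolase gene Tkt of the pentose phosphate pathway read 2526 on the array labelled DKO against 1027 on that labelled ApoE-KO (1.30) and was the 1 gene past 2-fold among the 14 on or above the floor. Taldo1 (0.97) of the same pathway and the malic enzyme gene Me1 (8242 and 4296, 0.94) followed. In the mitochondrial matrix, Idh2 read 1817 and 1164 (0.64) and the NAD kinase gene Nadk2 646 and 418 (0.63). The mitochondrial malic enzyme gene Me2 went the other way at 409 and 488 (-0.25). Below the floor, Me3 stood at 0.64 and Aldh1l2 at -0.10. Nnt, the transhydrogenase of the inner membrane, was the lowest of the list at 304 and 407 (-0.42), and C57BL/6J mice are known to carry a deletion within this gene. Idh2, Nadk2, Me2, Me3, Aldh1l2 and Nnt were singled out after their values were seen.

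Among 32 further peroxide and redox genes, 21 were higher and 11 lower, with a median of 0.23, and 1 of the 30 on or above the floor was at least 2-fold higher. That gene was Cox17, a copper chaperone of the mitochondrial intermembrane space (812 and 313, 1.38). The methionine sulfoxide reductase gene Msra (0.84) and the thioredoxin-related Tmx2 (0.71) came next. Catalase (Cat), the peroxisomal enzyme that breaks down hydrogen peroxide, read 5764 and 4431 (0.38), and Ccs stood at 0.25, both named after their values were seen. The thioredoxin-binding protein gene Txnip, chosen in the same way, stood at -0.21.

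Of 23 genes of cysteine supply and glutathione turnover, 12 were higher and 11 lower, with a median of 0.07. Oplah, which returns 5-oxoproline from broken-down glutathione to glutamate, read 1519 and 645 (1.24) and was the 1 gene past 2-fold. Slc25a39, the carrier that brings glutathione into mitochondria, read 4215 and 2285 (0.88), and Hagh, a glyoxalase that frees glutathione, read 2044 and 1116 (0.87). The cystine importer Slc7a11 lay below the floor at 73.6 and 104. Other targets of NRF2 outside the 51 genes had a median of 0.15 over 20 genes, with none past 2-fold and Akr1b8 (0.94), Pir (0.74) and Cbr1 (0.73) as the largest. The 15 regulators and partners of NRF2 had a median of 0.09, also with none past 2-fold, the largest on or above the floor being the repressor gene Bach2 (-0.73), Sesn2 (0.33) and Rbx1 (0.27). Bach2 is also expressed by B cells, whose 9 markers were all lower with a median of -1.08, and the part of B cells in its value was not tested.

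Genes whose products generate reactive oxygen had a median of -0.19 over 14 measured, with none past 2-fold. Of these, 9 were lower, as were 10397 of all 19938 genes. Among those reaching the floor, 2 fell short of the ApoE-KO reading by 1.5-fold or more and 1 exceeded it by as much. Of all genes on or above the floor, 3.73% were that much lower and 7.57% that much higher. Rac2 (705 and 1186, -0.75) and Cybb (852 and 1396, -0.71), parts of the phagocyte NADPH oxidase, were the lowest of the list. Both are genes of leukocytes, and Cybb is itself in the macrophage marker list, whose 14 genes had a median of -0.45. Ero1a, the oxidase that forms disulfides in the endoplasmic reticulum, was the highest at 753 and 441 (0.77).

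**Figure D4:**
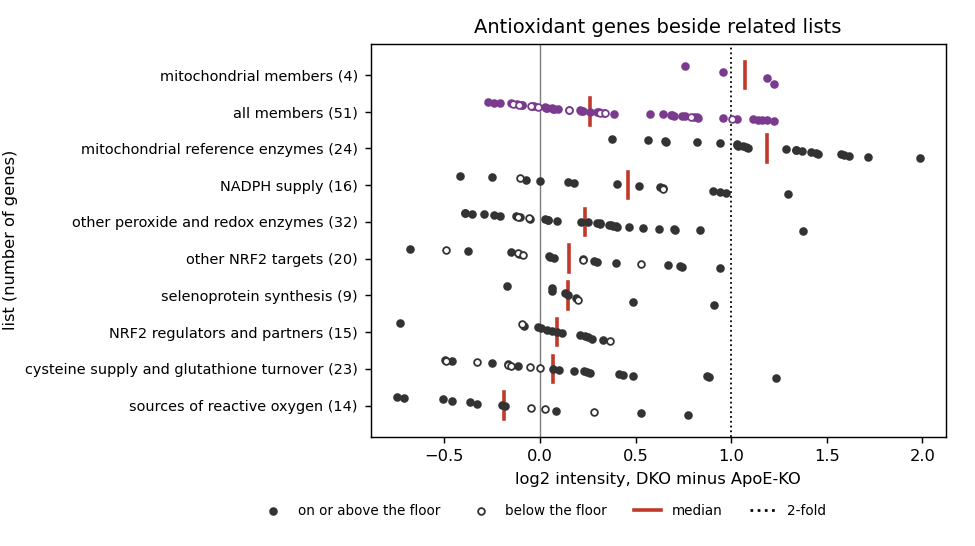
Log2 difference between the arrays (horizontal axis) for the 4 mitochondrial antioxidant genes, all 51 antioxidant genes and 8 related lists, 1 point per gene (open below the floor), with medians as red bars and the 2-fold size as a dotted line. The medians run from 1.19 for the mitochondrial reference enzymes to -0.19 for the sources of reactive oxygen, with 0.26 for the 51 genes.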

How the data were processed

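The authors deposited 1 linear intensity per probe set and array. Per the labels' protocols, RNA was isolated with Trizol and hybridised as biotin-labelled DNA fragments. How the arrays were scanned, background-corrected, summarised and scaled is not stated in the labels or the table, and a low intensity cannot be told from background. Arrays took their group from the genotype labels. With python 3.11.15, numpy 2.4.6 and pandas 2.3.3, log2 was taken with no pseudocount. Of 35557 probe sets, 21789 had 1 symbol in the platform annotation, 1621 had several and 12147 were unnamed, and only the first kind was used. A gene with several probe sets took the one with the highest mean. The floor is a rule of size, not a detection limit. The number of arrays limits the precision. The calculation was tested on simulated data with known changes. The genes and lists were chosen with earlier results of these data known. By rule, both intensities are given for genes on or above the floor, and from each related list the genes past 2-fold or the 3 largest. The GC box search was added after the differences were seen. Promoters are RefSeq's (GRCm38.p6), matched by symbol for 45 of 51 genes. Alternatives were quantile normalization, median centring, loess (statsmodels 0.14.6, span 0.4), an offset of 50, the mean of probe sets, other floors and sizes.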

Additional observations from a re-analysis of the deposited data

How the results depend on the processing

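No paired analysis was possible because each genotype had 1 array. Genes past 2-fold upward numbered 6, with a range of 5 to 7 over other scalings, probe set rules and floors. They numbered 16 at 1.5-fold and 0 at 3-fold, by construction of those sizes. Median centring added Txnrd2 and no floor added Gstm6. The mean of probe sets, and the dimmer probe set (chosen after seeing the data), took Prdx2 below 2-fold, and the offset of 50 took Gsto1 there. Genes past 2-fold downward numbered 0 in every setting run. The median over all 51 genes was 0.26 and became 0.37 as a mean. The mitochondrial median was 1.07 and became 0.69 with the 5 genes of dual location added. The median of the other genes was 0.22 and became 0.093 once values under the floor were raised to it. Of the 51 values of counts and medians, 46 moved by no more than 0.1 or 1.5 times. The sign changed under some setting for Nqo1, Nfe2l2, Gclc, Gstz1 and Gstp3, all within 0.05 of 0. No scaling moved the median of all genes by more than 0.052.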

Other observations

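Probe sets with several symbols were left out of the 51 genes. A pair of them reads Gstp1 together with Gstp2, at 950 and 995 in the array labelled DKO and 928 and 968 in the array labelled ApoE-KO, differences of 0.03 and 0.04. A further 4 read Gsta1 and Gsta2 together with 2 predicted genes, and all lay below the floor on both arrays, between 43.6 and 86.0, with differences from 0.12 to 0.24. Of the alpha-class genes, Gsta3 and Gsta4 alone were on or above the floor.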
